A study of Mus musculus with 6 samples.

Results

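The regions described here were 1 kb windows of the autosomes that were partly methylated in Tet2 WT germinal centre B cells and lay apart from CpG-dense stretches. Each window, called a tile below, held 3 to 19 CpG positions, had no tile of 40 or more positions within 10 tiles on either side, and had a mean methylation above 50% and up to 80% over the 3 Tet2 WT libraries. By this rule 14913 tiles were chosen, out of 81452 tiles that were isolated in the same way at any level and 179605 tiles with any position covered in all 6 libraries. WT levels chose the tiles, so their WT levels, and the balance of differences from WT over the whole set, are descriptions and carry no test.

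The DNA was that of germinal centre B cells isolated from the spleens of C57BL/6 mice, with 3 libraries labelled wild type for Tet2 (WT) and 3 labelled knock-out (KO). The labels give neither the allele, the Cre driver if any, the age of the mice, the way germinal centres were raised, nor whether animals were pooled, and the files hold no expression, so the cell type was taken from the labels. Replicates carry numbers only, and nothing says that they are separate mice, so a p-value here speaks of the scatter among 6 libraries, some of which may be technical. Methylation was read by enhanced reduced representation bisulfite sequencing (ERRBS): DNA is cut by MspI at CCGG, fragments are treated with bisulfite, and each read reports a CpG on 1 strand as methylated or not. As a check of the labels, 6 CpG positions inside Tet2 (chr3:133486189-133486297, GRCm38) were listed in all 3 WT libraries, with 32 to 168 reads, and in no KO library, while 108 other positions of the gene were listed in all 6.

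TET2 oxidises 5-methylcytosine to 5-hydroxymethylcytosine and on to further products, a route by which methylation is removed. Bisulfite reads 5-methylcytosine and 5-hydroxymethylcytosine alike, so every level below is their sum. Most CpGs of a mammalian genome outside CpG islands are highly methylated, and intermediate levels mean that reads of the same place differ, between cells, between alleles, between strands or between neighbouring CpGs. Germinal centres are the sites in lymphoid organs where B cells divide, mutate their antibody genes and are selected.

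At the 1463044 positions that reached 10 reads in every library, coverage summed over positions was 167812629 to 200174620 per library. The isolated partly methylated tiles held 79681 of these positions. A tile held a median of 4 positions over a median span of 148 bp. Its summed coverage had a median of 400 to 451 per library (lowest 30, highest 21876). A read that spans several positions is counted at each of them, so such sums can exceed the number of separate reads.

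Promoter sequence was available for a small part of the tiles: 223 of 14913 had a position in a RefSeq promoter window (GRCm38.p6). Stretches from 3 of them are shown because they hold, in turn, a tile whose strands disagree, a tile that was called higher in KO, and the largest number of measured positions upstream of a start site. Each is the plus strand, 5′ to 3′, and capitals mark the CG of each measured position. The stretches lie at chr1:78816846-78816909, chr11:69815527-69815581 and chr9:89066691-89066821.
Kcne4: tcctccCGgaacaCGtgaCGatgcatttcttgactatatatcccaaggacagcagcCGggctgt
Gm39566: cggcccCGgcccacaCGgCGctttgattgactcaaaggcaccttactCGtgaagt
Gm24463: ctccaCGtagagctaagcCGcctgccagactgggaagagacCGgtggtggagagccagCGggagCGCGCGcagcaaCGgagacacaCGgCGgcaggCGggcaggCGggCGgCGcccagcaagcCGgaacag

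Kcne4 encodes a subunit that modulates potassium channels. Its tile stood at 63.8%, 52.3% and 62.1% in WT and at 63.1%, 75.5% and 70.3% in KO, so the groups overlapped and the difference was not called (10.2 points, adjusted p = 0.384). The last CG of the stretch, inside a CCGG, was read at 0%, 2.01% and 0% in WT and at 0% in each KO library on the forward strand. On the reverse strand the same CG stood at 73.5%, 40.5% and 86.05% in WT and at 100%, 100% and 85.7% in KO.

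In the Gm39566 stretch all 5 positions were higher in KO. The position in the first CG, which is part of a CCGG, stood at 32.6%, 49.4% and 37.9% in WT against 71.0%, 78.4% and 67.2% in KO. Over the 10 positions of the tile the levels were 56.3%, 65.1% and 60.6% in WT and 75.3%, 75.8% and 73.4% in KO. All 3 KO libraries were above all 3 WT libraries, and the tile was called higher (14.2 points, adjusted p = 0.0199).

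The Gm24463 stretch carried 19 positions, of which 6 were higher in KO, and lay 17624 bp from the nearest protein-coding gene, Trim43b. Its tile stood at 60.9%, 93.5% and 78.8% in WT and at 68.6%, 81.2% and 69.3% in KO, a spread within WT that was wider than the distance between the groups (adjusted p = 0.892). The positions of the stretch moved with the library: in the first WT library the 19 values ran from 40.4% to 77.9% and in the second from 78.4% to 100%, without overlap.

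Partly methylated tiles were a little more methylated in KO. Their median level was 69.2%, 70.6% and 71.9% in the 3 WT libraries and 74.1%, 74.8% and 73.6% in the 3 KO libraries, so every KO library lay above every WT library. Tile by tile, the median of the KO minus WT difference was 3.18 percentage points, with quartiles at -0.55 and 7.41 points. KO was the higher group in 10709 tiles (71.8%). Over all 83175 tiles tested, whatever their level or place, the median difference was 1.27 points and KO was higher in 64.0%.

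**Figure D1:**
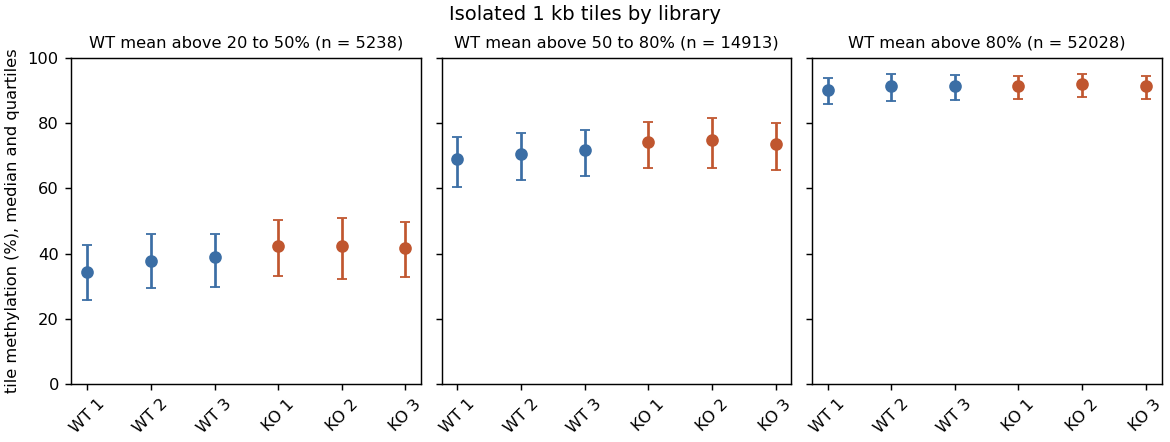
Tile methylation (%) in each library for isolated tiles with a WT mean above 20 to 50%, above 50 to 80% and above 80%, with points at the median and bars from the lower to the upper quartile. The median of the tiles at 50 to 80% lies between 69.2% and 71.9% in the WT libraries and between 73.6% and 74.8% in the KO libraries, while that of the tiles above 80% lies between 90.3% and 92.2% in all 6.

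By WT level, isolated tiles with a WT mean above 20 and up to 50% had a median difference of 3.86 points, those up to 20% of 0.25 points and those above 80% of 0.51 points. The WT mean that sorted the tiles is also the value subtracted, so these medians depend on the sorting: with tiles sorted by their KO mean, the medians were 0.16 points up to 20%, 2.73 at 20 to 50%, 1.38 at 50 to 80% and 0.89 above 80%. A tile near 0% or 100% has little room to move in 1 direction, and levels near the ends vary less between libraries. The median SD between libraries of a partly methylated tile was 5.75 points in WT and 3.84 points in KO, against 3.41 and 2.38 points in tiles above 80%. WT was the more variable group in 67.5% of the partly methylated tiles and in 66.5% of all tested tiles.

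Large rises outnumbered large falls. The difference was 10 points or more upward in 2291 tiles (15.4%) and 10 points or more downward in 226 (1.52%). At 20 points or more the counts were 252 and 14. All 3 KO libraries lay above all 3 WT libraries in 2710 tiles, 18.2% of the set against 12.7% of all tested tiles. The reverse held in 382 tiles, 2.56% against 3.53%. These shares too depended on the choice by WT levels: in the same band chosen on KO levels they were 13.4% and 5.02%, and rises and falls of 10 points or more made up 12.9% and 2.68%.

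The first WT library was the lowest of the 6 in 4870 tiles, the second in 3768 and the third in 2518. The KO libraries were the lowest in 1040, 1400 and 1317 tiles. The second KO library was the highest of the 6 in 4037 tiles, and the other 5 libraries in 1428 to 2665 each. WT libraries were therefore not alike: the first sat lower than the other WT libraries across these tiles.

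The 3.18 points depended on which libraries chose the tiles. When the same 50 to 80% band was applied to the mean of the 3 KO libraries, 13605 tiles were chosen, their median difference was 1.38 points, and KO was higher in 59.6%. With the mean of all 6 libraries, 14084 tiles were chosen and the median was 2.40 points. When 2 WT libraries chose the tiles and the WT library left out was compared with KO, the median was 3.07 points against the first WT library, 1.74 against the second and 1.24 against the third, with KO higher in 65.5%, 58.6% and 57.4% of tiles. Choosing on 2 KO libraries and comparing the KO library left out with WT gave 1.995, 2.61 and 1.496 points. Every one of these medians was above 0, and the lowest was close to the 1.27 points of all tested tiles.

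**Figure D2:**
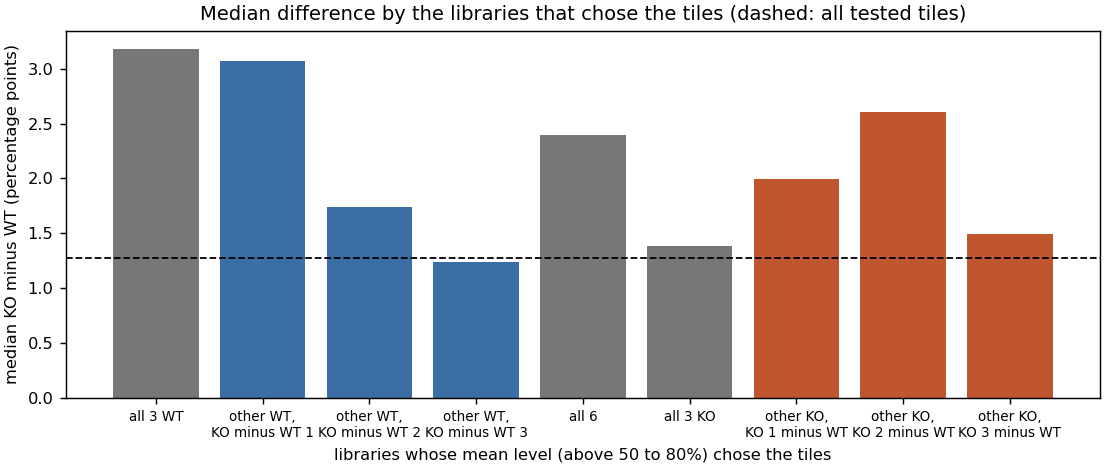
Median KO minus WT difference (percentage points) of isolated tiles in the 50 to 80% band, for each set of libraries that could choose the tiles; the grey bars choose and compare on the same libraries, and the coloured bars compare a library that had no part in the choice. Bars run from 1.24 to 3.18 points, and the dashed line marks the 1.27 points of all tested tiles.

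The choice also shaped how alike the libraries looked. Over the 14913 tiles, and as a description only, since tiles share their libraries and their band, Pearson's r was 0.442 to 0.496 between WT libraries and 0.746 to 0.795 between KO libraries. In the 13605 tiles chosen on KO levels it was 0.660 to 0.708 between WT libraries and 0.613 to 0.703 between KO libraries.

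In KO, 10820 of the tiles (72.6%) stayed between 50 and 80%, 3825 (25.6%) were above 80%, 268 (1.80%) were between 20 and 50%, and none was lower. Movement in the other direction was seen among the highly methylated isolated tiles, of which 1563 of 52028 (3.004%) lay between 50 and 80% in KO. Of the isolated tiles between 20 and 50% in WT, 1210 (23.1%) lay between 50 and 80% in KO. The band of 50 to 80% in KO was made up of 79.5% of tiles from the same WT band, 11.5% from above 80% and 8.89% from 20 to 50%.

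**Figure D3:**
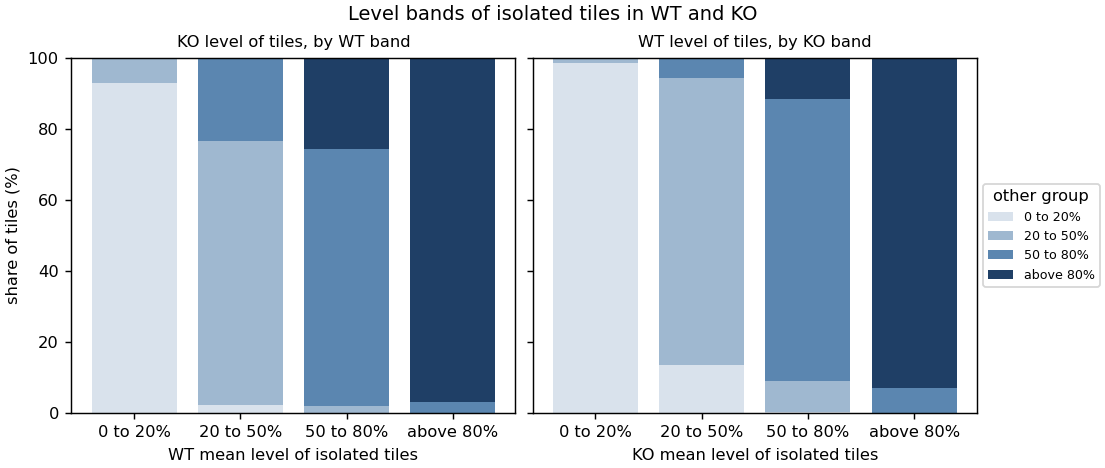
Share of isolated tiles (%) by methylation band, with the KO band of tiles grouped by their WT mean on the left and the WT band of tiles grouped by their KO mean on the right. Of tiles at 50 to 80% in WT, 25.6% were above 80% in KO, and of tiles at 50 to 80% in KO, 11.5% were above 80% in WT.

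Differences in single tiles were tested across the whole table of tiles with a moderated quasi-binomial test and Benjamini-Hochberg adjustment, and a tile was called at an adjusted p under 0.05 and a difference of at least 10 points. Of the 14913 tiles, all of which were tested, 185 (1.24%) were called higher in KO, beside 0.684% of all tested tiles, and 1 was called lower, beside 0.0024%. An unadjusted p under 0.05 was found in 2540 (17.0%), beside 9564 of all tested tiles (11.5%). Called tiles made up 2.997% of the isolated tiles at 20 to 50% (157 of 5238) and 8 of 45393 tested tiles above 80% (0.0176%). With bands set by KO levels, 166 of 13605 tiles at 50 to 80% (1.22%) and 165 of 47670 tested tiles above 80% (0.346%) were called higher. Within the partly methylated tiles the share called higher was 3.04% at a WT level of 50 to 60%, 1.54% at 60 to 70% and 0.517% at 70 to 80%. The WT level is also the value subtracted, so these shares depend on the sorting. The share was 0.442% in tiles with 3 positions against 2.14% in those with 10 to 19. Summed coverage had a median of 253 to 303 per library in the former and 1098 to 1200 in the latter.

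The number of calls depended on single libraries and on the test. It was 49 without the first WT library, 253 without the second and 425 without the third, and 25, 25 and 32 without KO libraries 1, 2 and 3 in turn. It was 0 with limma on log ratios, 0 without moderation of the dispersion and 0 when tiles of 3 or more positions with a mean under 5% or above 95% were also fitted, where 1670, 1841 and 2492 tiles had an unadjusted p under 0.05. Of the 185 tiles, 13 were called in the whole set and in each of the 6 fits with a library left out. All 185 kept the direction of their difference in every one of these fits. In 184 of them the groups did not overlap and the other tests used the same levels, so no change of direction was possible.

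The 185 rises ran from 10.1 to 40.5 points, with a median of 20.03. Their median level went from 63.1% in WT to 85.6% in KO, and 145 of them (78.4%) were above 80% in KO. The groups did not overlap in 184. Among the 3 WT libraries the first was the lowest in 143 of these tiles, the second in 28 and the third in 14. Their median SD was 6.82 points in WT and 2.38 points in KO. The rises were spread over all 19 autosomes, with 6 to 15 on each.

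Rises in and near genes were named by size. The largest lay in Psme1, which encodes a subunit of an activator of the proteasome (chr14:55580001-55581000, 4 positions). It stood at 40.1%, 62.8% and 50.6% in WT and at 93.6%, 90.9% and 90.7% in KO (40.5 points, adjusted p = 0.0124). The WT values were far apart and the KO values close together, with no overlap. Without any 1 of the KO libraries the call was lost, with an adjusted p of up to 0.0794.

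Nfatc1 encodes a transcription factor that calcium signalling from antigen receptors switches on. A tile in it (chr18:80617001-80618000) stood at 49.9%, 54.4% and 60.1% in WT and at 88.5%, 93.5% and 96.6% in KO (38.1 points, adjusted p = 0.00125). The WT libraries lay within about 10 points of each other and all 4 positions were higher in KO. The call held whichever library was left out, with an adjusted p of at most 0.00872.

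A tile in Apobec1, the cytidine deaminase that edits Apob messenger RNA, covered 12 positions (chr6:122591001-122592000). Its summed coverage was 1079 to 2361 per library. Its levels were 40.8%, 53.9% and 63.1% in WT and 87.3%, 88.4% and 84.7% in KO (34.2 points, adjusted p = 0.00256). All 12 positions were higher in KO: their group means spanned 20.6% to 89.3% in WT and 67.9% to 98.5% in KO. This call too held without any 1 library (adjusted p at most 0.0204).

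Scarb1 encodes a receptor for high-density lipoprotein. Its tile (chr5:125294001-125295000, 6 positions) stood at 47.7%, 73.4% and 57.8% in WT and at 91.2%, 94.3% and 91.4% in KO (32.6 points, adjusted p = 0.00601). WT was widely spread and KO was tight, and the call held without any 1 library.

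Other large rises lost their call when single libraries were left out. The tile in Pole2, which encodes a subunit of the replicative DNA polymerase epsilon, stood at 35.0%, 70.4% and 66.9% in WT and at 89.7%, 92.5% and 90.6% in KO (adjusted p = 0.0221, up to 0.112 without 1 KO library). Here 1 WT library was far below the others. In Tmc6 the odd library was another one: 37.8%, 81.4% and 46.2% in WT against 89.5%, 89.6% and 86.1% in KO (adjusted p = 0.0399), and that call was kept only without the second WT library (up to 0.182 in the other fits). Ndst1, which encodes an enzyme that modifies heparan sulfate, had a tile at 45.8%, 62.0% and 56.5% in WT and 86.4%, 86.4% and 88.6% in KO (adjusted p = 0.00829), lost without the third KO library (0.0653).

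Fam20b encodes a kinase that acts on the sugar linker of proteoglycans. Its tile rose by 34.4 points, and tiles 2551 bp from Fstl4 and 416 bp from the lens crystallin gene Crybb1 rose by 31.2 and 30.8 points. Each of these 3 was called only without the second or the third WT library among the fits with a library left out (adjusted p up to 0.108 in the others). WT levels ran from 48.4% to 76.3% over these tiles and KO levels from 84.1% to 93.7%.

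Among called tiles more than 5 kb from any protein-coding gene, the nearest genes of the 4 largest rises were Glcci1 (24600 bp), the bone regulator Runx2 (65987 bp), Snx5 (72123 bp) and Gtf3a (49657 bp), which encodes the transcription factor for 5S ribosomal RNA. The Gtf3a tile (chr5:146898001-146899000) stood at 52.3%, 62.3% and 60.7% in WT and at 85.4%, 84.3% and 85.4% in KO (26.7 points, adjusted p = 0.00273). Its groups were compact and far apart, and it was called without any 1 library. The other 3 rose by 28.1 to 28.7 points and lost the call without the first or the second KO library, the Runx2 and Snx5 tiles also without the third, and the Snx5 tile also without the first WT library (adjusted p up to 0.105).

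**Figure D4:**
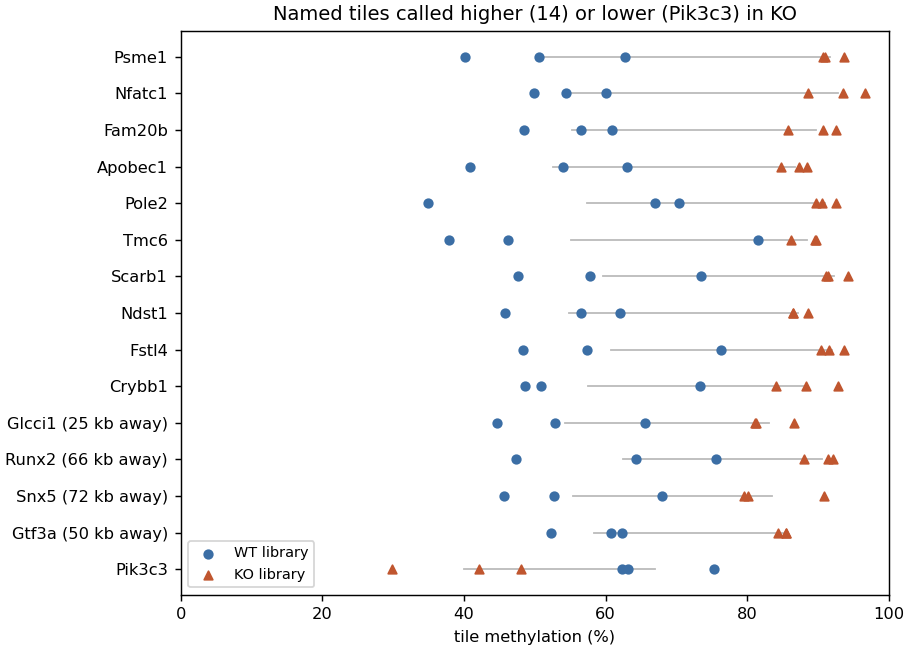
Tile methylation (%) in each library for the 14 tiles named as the largest rises and for the tile called lower, with circles for WT libraries, triangles for KO libraries and a grey line between the group means. In all 14 rises the 3 KO libraries lie above the 3 WT libraries, and in Pik3c3 they lie below.

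The tile called lower lay in Pik3c3, which encodes the phosphatidylinositol 3-kinase that works in autophagy and endosome traffic (chr18:30268001-30269000). It stood at 63.1%, 62.3% and 75.2% in WT and at 42.2%, 48.1% and 29.8% in KO (-26.9 points, adjusted p = 0.0354). All 4 positions were lower in KO and the groups did not overlap. The call was kept in 1 of the 6 fits with a library left out, the one without the second WT library, and the adjusted p reached 0.153 in the others.

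The 13 tiles called in the whole set and whichever library was left out were led by Nfatc1, Apobec1 and Scarb1. The others at genes lay in Src, a tyrosine kinase (26.8 points), Baiap2l1 (24.5), Pck2, a mitochondrial enzyme of phosphoenolpyruvate synthesis (24.2), Ass1, the argininosuccinate synthase of the urea cycle (23.9), Esr1, the oestrogen receptor alpha (19.4), Mtch1 (16.3) and Lexm (16.0), and 3401 bp from Ssr1 (14.3). Away from genes they were the Gtf3a tile and a tile 24483 bp from Tiparp (25.8 points). The Ass1 tile covered 18 positions and stood at 54.4%, 68.0% and 67.3% in WT and 85.0%, 90.4% and 86.02% in KO. In Esr1 (12 positions) WT was tight at 51.8%, 53.3% and 52.7% while KO spread from 67.7% to 77.4%, the reverse of the usual order of the spreads.

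In 3 genes, 2 tiles each were called higher. In Nfkbie, which encodes an inhibitor of NF-kB, neighbouring tiles covered 6 and 15 positions: the first stood at 40.5%, 64.3% and 70.9% in WT and 87.1%, 89.0% and 81.6% in KO, and the second at 55.3%, 70.3% and 69.0% against 85.9%, 83.9% and 83.0%. Both lost the call without any 1 KO library (adjusted p up to 0.164). Cmah, which encodes a hydroxylase that makes N-glycolylneuraminic acid, also had neighbouring tiles, with rises of 19.3 and 17.6 points. The 2 tiles of Ppp1r16b, a regulatory subunit of protein phosphatase 1, lay 8 tiles apart and rose by 29.2 and 15.1 points.

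Gene lists were chosen with earlier results of these data known, and each is read beside the whole set (median 3.18 points, KO higher in 71.8%, 1.24% called higher). Tiles count for a list when they lie in or within 5 kb of its genes. The whole set is a low yardstick for such tiles. Those overlapping any protein-coding gene had a median of 3.81 points and 1.85% called higher. Those farther than 5 kb from one had 2.39 points and 0.549%. For the germinal centre programme, 34 tiles lay at 11 of 32 genes: KO was higher in 29, the median difference was 7.68 points and 3 were called higher. These were in Ebf1, a transcription factor of the B lineage, Myo1e, a membrane-associated myosin, and Irf8, a transcription factor of B and myeloid cells. Ebf1 stood at 55.1%, 59.9998% and 76.4% in WT and 87.5%, 90.0% and 86.1% in KO (adjusted p = 0.0245). Irf8 rose less, from 74.3%, 81.6% and 79.8% to 91.0%, 90.9% and 90.8% (adjusted p = 0.0194), with KO libraries almost equal. All 3 calls were lost without the first WT library or any KO library (adjusted p up to 0.200).

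Signalling genes of the B-cell receptor, CD40 and NF-kB held 20 tiles, with KO higher in 19, a median of 9.70 points and 3 called, the pair in Nfkbie and a tile in Blnk, an adaptor of the B-cell receptor. Blnk stood at 53.0%, 61.2% and 63.5% in WT and 79.3%, 79.6% and 88.1% in KO (adjusted p = 0.0146, up to 0.0806 without 1 library). Of the naive and follicular B-cell genes, 8 tiles were all higher in KO and 1 was called, in Cxcr5, the receptor that guides B cells into follicles. That tile covered 16 positions, all higher in KO, and stood at 54.9%, 67.3% and 75.6% in WT and 83.9%, 85.1% and 83.4% in KO (adjusted p = 0.0415, up to 0.159 without 1 library). The tile of Cxcr5 also lies within 5 kb of Bcl9l.

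Plasma-cell genes held 10 tiles, 7 of them higher in KO, and 2 calls: Irf4, a transcription factor of plasma-cell formation, at 59.7%, 52.8% and 63.5% in WT against 75.7%, 80.4% and 77.6% in KO (adjusted p = 0.0150), and Zbtb20, at 80.3%, 73.5% and 82.3% against 89.5%, 96.8% and 92.8% (adjusted p = 0.0478). Without any 1 KO library both calls were lost, and Zbtb20 also without the first or the second WT library (adjusted p up to 0.0759 for Irf4 and 0.191 for Zbtb20). The DNA methylation list held 13 tiles, all higher in KO, with a median of 10.6 points and 2 calls, the Apobec1 tile and a tile in Dnmt3a, a methyltransferase that writes new methylation. Dnmt3a stood at 58.4%, 75.7% and 59.6% in WT and 80.3%, 82.9% and 84.9% in KO (adjusted p = 0.0465), and that call was kept only without the second WT library (up to 0.169 in the other fits).

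Cell cycle and replication genes held 11 tiles, of which 10 were higher in KO and 2 were called, in Pole2 and in Ccnd3, a cyclin that drives B-cell division in the germinal centre. Ccnd3 stood at 51.1%, 63.7% and 66.7% in WT and 84.1%, 79.6% and 76.2% in KO (adjusted p = 0.0301, up to 0.154 without 1 library). Antigen presentation (4 tiles) and lymphoma genes (8 tiles) had no call. Their smallest p-values lay at H2-Eb1, a chain of MHC class II (37.1%, 60.3% and 65.4% in WT; 79.9998%, 86.8% and 67.7% in KO; adjusted p = 0.150), and at Tnfrsf14 (68.3%, 53.2% and 65.97%; 76.3%, 83.1% and 78.5%; adjusted p = 0.217).

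Genes of other cell types were counted in the same way. T-cell genes held 23 tiles with KO higher in 16, a median of 2.68 points and 1 call, in the T-cell receptor kinase Zap70, at 54.1%, 72.7% and 68.7% in WT and 88.4%, 91.4% and 89.4% in KO (adjusted p = 0.0110). Myeloid genes held 3 tiles, all higher in KO, with 1 call in the integrin Itgam (17.0 points, adjusted p = 0.0445). Erythroid and endothelial genes held 23 tiles with KO higher in 20 and 1 call, in the adhesion molecule Pecam1, whose WT libraries were nearly equal at 62.9%, 61.7% and 61.9% against 89.8%, 91.9% and 83.4% in KO (adjusted p = 0.0171). Zap70 and Pecam1 lost the call without the first or the second KO library (adjusted p up to 0.055 and 0.0968), and Itgam kept it only without the third WT library (up to 0.165 in the other fits). Natural killer genes held 3 tiles with no call, the smallest p lying at Tbx21 (6.01 points, adjusted p = 0.566). Whether cells of other types were present in the libraries was not tested.

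Stem and progenitor genes and Polycomb-bound developmental regulators had medians below that of the whole set. The first held 23 tiles with KO higher in 15 and a median of 1.80 points, the second 20 tiles with KO higher in 13 and a median of 2.51 points, and neither had a call. In Runx1, a regulator of blood formation, a tile stood at 69.6%, 72.0% and 71.1% in WT and 87.5%, 80.8% and 91.4% in KO (adjusted p = 0.126), without overlap. In Gata4, a regulator of heart development, the groups overlapped: 60.1%, 73.5% and 48.5% in WT, 70.3%, 73.4% and 86.9% in KO (adjusted p = 0.248).

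Hairpins of 19 microRNAs lay in 17 partly methylated tiles, with Mir292, Mir292b and Mir291b in the same tile. None of these tiles was called, beside 1.24% called higher in the whole set, and 17 tiles are too few to compare with that share. No measured position fell inside 15 of the hairpins, Mir10b and Mir7008 included, so the values are those of the surrounding tile. The tile of the developmental microRNA Mir10b stood at 64.4%, 52.7% and 67.8% in WT and 59.8%, 51.4% and 57.3% in KO. The widest difference was in the tile of Mir7008, 59.1%, 72.0% and 89.5% against 90.2%, 94.8% and 87.2% (17.2 points, adjusted p = 0.238), where WT itself spread over more than the difference.

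Partly methylated tiles lay in and outside genes in similar numbers: 7554 (50.7%) overlapped a protein-coding gene, 802 (5.38%) were within 5 kb of one and 6557 (44.0%) were farther away. For isolated tiles above 80% the shares were 56.5%, 4.37% and 39.1%, and 68.4% of those up to 20% overlapped a gene. Of the called tiles, 140 of 185 (75.7%) overlapped a gene and 36 (19.5%) were farther than 5 kb. The median difference was 3.81 points in genes and 2.39 points farther away, and 1.85% and 0.549% of these tiles were called higher. Chromosomes differed little, with a median difference of 2.55 to 4.04 points on each autosome.

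Few lay at start sites. Of 14424 tiles on chromosomes with start sites in the RefSeq promoter table, 390 (2.70%) held one, 1392 (9.65%) were within 2 kb and 10466 (72.6%) were beyond 10 kb, with a median distance of 22990.5 bp. Isolated tiles up to 20% held a start site in 26.1% and those above 80% in 1.58%.

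Neighbouring tiles were mostly highly methylated. The nearest other tile with 3 or more positions lay within 5 kb for 8325 of the tiles, and its median WT level was 82.6%. It was above 80% in 55.4% of cases, between 50 and 80% in 23.4%, and up to 20% in 12.6%. Tiles above 80% had a neighbour above 80% in 69.1% and one at 50 to 80% in 17.2%.

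Genes with the most partly methylated tiles were long. None of the tiles overlapping the genes named here was called, beside 1.24% called higher in the whole set. With so few tiles, this says little about these genes. A tile 128 bp from Gm37013 was called higher (means of 56.6% in WT and 71.7% in KO, adjusted p = 0.0487). Overlapping models of the clustered protocadherins on chromosome 18, adhesion molecules of neurons, held 37 of 75 isolated tiles in this band (Gm37013) and 35 of 72 (Gm38666 and Gm38667), and since the models overlap these are largely the same tiles. Camta1 held 30 of 108, Cdh13, a cadherin, 21 of 82, and Rbfox3, a splicing factor of neurons, 21 of 55. In the Gm37013 model KO was higher in 23 of the 37 tiles, with a median difference of 2.76 points.

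An intermediate tile level could come from positions that were each intermediate or from a mixture of high and low ones. Single positions in these tiles stood at 80 to 100% in 41.5% of cases in WT, at 60 to 80% in 31.0%, at 40 to 60% in 16.0%, at 20 to 40% in 5.82% and at 0 to 20% in 5.72%. In KO the top share was 49.7% and the others were lower: 28.1%, 12.6%, 4.49% and 5.19%. The median distance between the lowest and the highest position of a tile was 44.5 points in WT and 39.6 points in KO, against 14.6 points in WT for tiles above 80%.

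Mixed and even tiles were compared as a description, without a test. In 3113 tiles (20.9%) the WT means of the positions included 1 under 20% and 1 above 80%, and in 1874 (12.6%) every position was between 20 and 80%. The mixed tiles had a median difference of 1.98 points and 12 calls (0.385%), and the even tiles 5.32 points and 63 calls (3.36%). The split used the WT levels that are also subtracted, so this contrast depends on it. A position under 5% in all 6 libraries was held by 1370 of the mixed tiles (44.0%) and by 0 of the even ones. Even tiles also started lower, at a median of 60.8% in WT against 64.7% in the mixed ones. Of the 185 called tiles, 148 (80%) were higher in KO at every position, against 2728 (18.3%) of the whole set. As the called tiles were picked for their rise, this agreement is partly set by the pick.

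The extreme mixture was a tile in Fyn, which encodes a tyrosine kinase (chr10:39536001-39537000), 1 of the 3 named as the steadiest. It stood at 50.3%, 50% and 50% in WT and at 49.8%, 50.3% and 50.6% in KO. That level was made of 4 positions of 2 CpGs. At 39536346 on the forward strand the level was 100% in each WT library, while the other strand of the same CpG, at 39536347, stood at 0% in each. At 39536395 the forward strand stood at 0% in all 6 libraries and the reverse strand, at 39536396, at 100% in all 6. No position of this tile was itself partly methylated in WT.

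The other steady tiles were deeply read. In Exoc6b, an exocyst gene, a tile had a summed coverage of 10917 to 14197 per library. It stood at 69.5%, 68.2% and 69.4% in WT and 69.5%, 69.2% and 69.2% in KO. Its 4 positions ranged from 2.02% to 94.3% in the WT mean and from 1.95% to 94.9% in the KO mean, so it too was mixed. A tile 27395 bp from Sptbn1 stood at 77.7%, 77.0% and 76.8% in WT and 76.7%, 77.8% and 76.8% in KO. Both differed by under 1 point between the groups.

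Very low positions were gathered at 1 place. In the partly methylated tiles 1664 positions (2.09%) were under 5% in all 6 libraries. With positions of 1 strand joined into a run where gaps were at most 100 bp, 1521 of these (91.4%) were the last, the 3′ end, of their run, against 29.3% of the other positions, and 34 (2.04%) were the first, against 30.7%. The mean WT level was 75.8% at the first place, 74.6% inside, 59.6% at the last and 68.9% for a position alone. KO showed the same order, at 79.3%, 77.5%, 62.8% and 72.6%. In tiles above 80% the last place stood at 87.8% and the first at 92.1% in WT. The last place also held 83.7% of the positions under 5% in tiles above 80% (164 of 196). It held 70.6% of them in tiles at 20 to 50% (1156 of 1637) and 21.9% in tiles up to 20%. At 20 to 50% they made up 5.54% of positions, a larger share than in the partly methylated tiles.

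**Figure D5:**
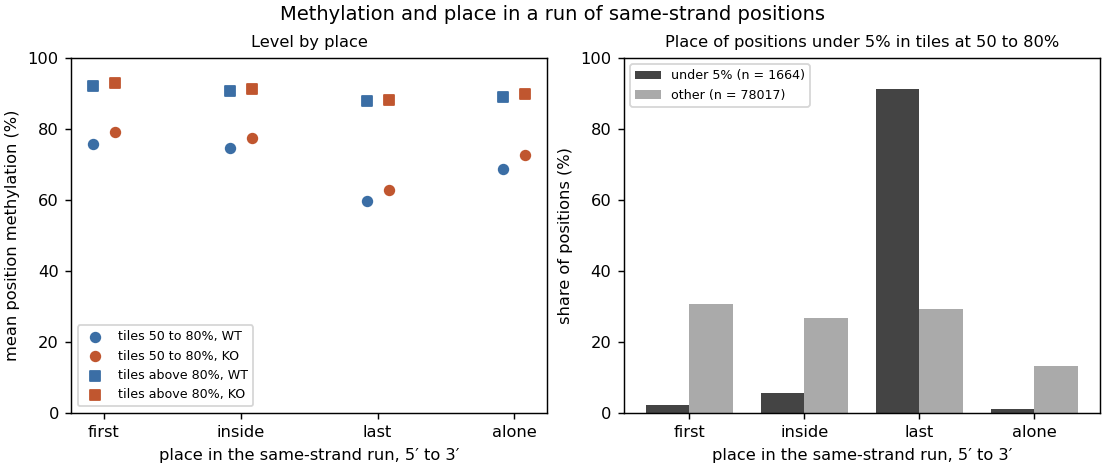
Mean methylation (%) of positions by their place in a run of same-strand positions, for tiles at 50 to 80% and above 80% in WT, on the left, and the share of positions (%) at each place for positions under 5% in all 6 libraries and for other positions of the tiles at 50 to 80%, on the right. In the partly methylated tiles the last place stood at 59.6% in WT and 62.8% in KO, and it held 91.4% of the positions under 5%.

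Strands of the same CpG disagreed often. Of 12528 CpGs read on both strands in the partly methylated tiles, 2595 (20.7%) differed by more than 50 points between strands in the mean of the 6 libraries. The share was larger in isolated tiles at 20 to 50%, at 1432 of 5012 (28.6%). It was 306 of 30477 (1.004%) in tiles above 80% and 10 of 11528 (0.0867%) in tiles up to 20%. A tile level near either end leaves little room for such a gap. In 1230 CpGs 1 strand was under 5% in all 6 libraries and the other was not, and that other strand had a median of 93.2% in WT and 93.8% in KO and was above 80% in 1019 (82.8%). Without the CpGs that differed by more than 50 points, the median distance between strands was 7.22 points in WT and 5.56 points in KO.

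Where sequence could be read, these CpGs lay at the enzyme's cut site. In the RefSeq promoter windows over the whole genome apart from chromosome 18, 54 of 58 positions of CpGs with such a strand difference (93.1%) were in a CCGG, against 23.0% of other positions read on both strands; CCGG reads the same on both strands and occurred in 17338 of 32851 windows (52.8%). The last CG of the Kcne4 stretch printed above is an example. Of all positions in partly methylated tiles there, 405 of 879 (46.1%) were in a CCGG. Among them were 4 of 4 with a strand difference. The share was close to that of all positions for those under 5% in all libraries (4 of 8). It was lower for those last in a run (28 of 251, 11.2%). As background, library preparation of this kind fills in the cut ends of MspI fragments with unmethylated cytosine; its part in these positions was not tested.

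Leaving such positions out took some of the tiles out of the band. Without the strand-discordant CpGs, 13712 of the 14913 tiles (91.9%) stayed in the band, 605 were above 80%, 1 fell to 50% or less and 595 had fewer than 3 positions left. Only 3 of the 185 called tiles held such a CpG. Without the 3′ end of each run 8854 tiles kept 3 positions, and 2534 of these (28.6%) were above 80%. Without the 5′ end, which removes as many positions, 8918 kept 3 and 572 (6.41%) were above 80%, while 839 were at 50% or less. Tiles with a position under 5% in all libraries (1388, 9.31%) had a median difference of 1.30 points and 3 calls (0.216%). Those without one had 3.46 points and 182 calls (1.35%). Such a position was picked on KO levels too and could not rise, so this contrast is partly set by the split.

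At the limits of the rule, tiles in Klhl32 (44.98%, 46.8% and 58.2% in WT) and 49045 bp from Htatip2 (47.9%, 45.1% and 57.0%) lay just above the 50% limit, and tiles in Pnmal2 (44.2%, 65.6% and 40.1%) and Edar (42.4%, 49.2% and 58.3%) just below it. At the upper limit, tiles in Snph (81.0%, 80.5% and 78.5%) and 10313 bp from Tbck (74.3%, 80.4% and 85.3%) lay inside, and tiles 23276 bp from Gm10710 (76.7%, 79.1% and 84.2%) and in Zbtb48 (73.3%, 94.4% and 72.3%) outside. Single libraries of these tiles fell on both sides of the limit.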

How the data were processed

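Per the file headers, each deposited file gives, for every CpG position and strand, a coverage count and the C and T reads as a percent of it. The authors aligned the reads with Bismark to GRCm38, per the submitters' processing notes; version and settings: not given in the sources used here. The lowest deposited coverage was 10.

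Methylated reads were recovered from the deposited coverage counts and percent values and summed over 1 kb tiles of positions listed in all 6 libraries. A level is their share of the summed coverage. The test used the reads called C and T. Tiles with 3 or more positions and a mean of 5 to 95% were tested by quasi-binomial logistic regression, the Pearson dispersion of which (4 degrees of freedom, prior 9.35) was moderated by the method of limma (3.58.1, R 4.3.3), written in Python 3.11.15 and checked against limma and on simulated data. P-values were adjusted by Benjamini-Hochberg over all 83175 tiles tested. The tiles and gene lists were chosen with earlier results of these data known. Named were the 10 largest called rises at a protein-coding gene (within 5 kb) and the 4 largest farther away, without group overlap. Also named were called falls, up to 4 called tiles of each gene list or else its smallest p, and the 3 steadiest. Further ones were those next to the 50% and 80% limits and the 5 genes with most tiles. Tiles chosen for their sequence, repeated calls or calls kept whichever library was left out were added after their values were seen. In 1 tie a further gene was named. Gene positions came from RefSeq (GRCm38.p6). Exons, introns and CpG islands were not analysed here. PCR copies cannot be told apart from independent molecules.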

Additional observations from a re-analysis of the deposited data

How the results depend on the processing

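As reported, there were 14913 tiles, 185 called higher, 1 called lower and a median difference of 3.18 points. No called tile that is named changed direction under an alternative that was run for it. The groups of these tiles did not overlap and the other tests used the same levels, so no such change was possible. Of the named tiles that were not called, 5 changed sign with 1 library left out, over ranges of -0.0611 to 0.34 points (Fyn), -0.42 to 0.18 (Sptbn1), -0.21 to 0.47 (Exoc6b), -1.52 to 6.83 (Klhl32) and -1.003 to 5.15 (Htatip2). The replicate number as a block gave 304 higher and 3 lower calls and ended 8 of the 185 calls. Among named tiles it ended that of Zbtb20 (adjusted p = 0.0505). Deviations of same-numbered libraries over all tested tiles correlated at 0.0228, 0.00206 and 0.00354. Those of differently numbered libraries correlated at -0.0202 to 0.0151. The labels do not say that equal numbers pair libraries, and whether same-numbered libraries shared a batch was not tested. Limma on log2 ratios, unmoderated dispersions and testing tiles of 3 or more positions at any level each gave 0 higher and 0 lower calls. Leaving out 1 library gave 25 to 425 higher and 0 to 4 lower calls. Choosing tiles on KO levels gave a median of 1.38 points and 0 lower calls, and choosing on the other WT libraries gave 1.74 against the second and 1.24 against the third WT library. Alternatives chosen after seeing the data were the omission of run ends and of strand-discordant CpGs. With tiles chosen anew by the same rule, omitting the 3′ end of each run gave 7225 tiles (6118 of them among the 14913) and 173 higher calls, omitting the 5′ end 9610 tiles (7507), 85 higher and 0 lower calls, and omitting the strand-discordant CpGs 13742 tiles (13712) and 248 higher calls. A coverage minimum of 20, equal weights for positions, omission of the most deeply read positions, choice on all 6 libraries, a grid shifted by 500 bp and isolation of 5 tiles gave 177 to 224 higher calls and 1 lower call each. The causes of these changes were not tested. A tile with a summed coverage of 30 in a library has a coarse level, and tiles of 3 positions held 20 of the 185 calls.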
